A study of Homo sapiens with 30 samples.

Results

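The mitochondrial ribosomal protein genes are taken here as every gene symbol that begins with MRPL or MRPS followed by a digit. 81 of the 25680 symbols in the expression tables met this rule, and since 32 of them are listed with more than 1 transcript, the one with most counts on average stood for the gene. 50 encode proteins of the large subunit, among them MRPS30 and MRPS18A, which carry small-subunit names but sit in the large subunit. 26 encode proteins of the small subunit. MRPS36 is kept apart, because its protein belongs to the oxoglutarate dehydrogenase complex, and 4 symbols are pseudogenes or an antisense transcript (MRPL23-AS1, MRPL42P5, MRPL45P2 and MRPS31P5). 80 of the 81 passed the filter on low counts and were tested among 16409 genes. The exception was MRPS18B.

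The cells were OPM2 and H929, established lines from patients with multiple myeloma, a cancer of plasma cells. Each line received 100 nM dBRD9-A or its solvent DMSO for 24 h. dBRD9-A is a degrader of BRD9, a bromodomain protein found in one form of the BAF chromatin remodeller, and the study asked how transcript levels answer to it. RNA was sequenced from 3 libraries in each of 4 groups, OPM2 with DMSO, OPM2 with dBRD9-A, H929 with DMSO and H929 with dBRD9-A, all from whole cultures and prepared with a stranded kit that selects polyadenylated RNA. The labels do not say whether the 3 libraries of a group are separate cultures, and p-values therefore rest on a spread between libraries that may be technical. The series lists 30 samples, and 18 of them (BRD9 hairpins with their luciferase controls, and OPM2 polysome RNA) were not analysed here.

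Mitochondria keep their own ribosome, which translates only the few proteins that mitochondrial DNA encodes, all of them membrane subunits of the respiratory chain and the ATP synthase. Its RNA is made inside the organelle, whereas every one of its proteins is encoded in the nucleus, made in the cytosol and imported, so the nuclear genes described here must be supplied together. Part of the proteins have counterparts in the bacterial ribosome, such as those that line the exit tunnel, the decoding centre and the factor-binding stalk. The others were added during the evolution of mitochondria, while part of the ribosomal RNA was lost.

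The labelled cell type was checked first. All 8 plasma cell markers were present, with XBP1 at 1351 to 2334 and SDC1 at 261 to 1219 CPM (counts scaled to a common library total, adjusted by the TMM factors of edgeR). Of the markers of other cells, CD3D, CD2, LYZ, CD14, EPCAM and KRT19 were at most 0.421 CPM in every library, CD3E reached 39.3, CSF1R 10.3 and HBB 6.46 (means of 24.1 and 37.7 for CD3E and 2.45 and 7.76 for CSF1R in H929 with DMSO and dBRD9-A), and their part in the results was not tested. Libraries held 42895379 to 76600957 counts, except OPM2 dBRD9-A replicate 2 with 24524190, and this library also stood apart in its profile (its log2 deviations from the group mean had an SD of 0.841 over genes, against 0.163 to 0.482 in the others). BRD9 transcript, which a protein degrader need not change, was at 89.7 ± 4.03 CPM (SD, n = 3) in OPM2 with DMSO and 76.3 ± 8.04 with dBRD9-A (adjusted p = 0.241), and at 87.7 ± 13.5 and 63.6 ± 6.80 in H929 (adjusted p = 0.0391).

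In DMSO the 81 symbols together took 0.4565 to 0.4794% of the counts in OPM2 and 0.4297 to 0.4622% in H929. Summed over the members, the level was 4559.6, 4619 and 4539.5 CPM in replicates 1, 2 and 3 of OPM2 with DMSO and 4815, 5035 and 4535 in H929 with DMSO. With dBRD9-A the sum was 3679, 4336 and 3661 CPM in OPM2 and 3541, 4187 and 3959.7 in H929. In both lines every treated library lay below every DMSO library of the same line. In these whole cultures fewer cells of a kind and less RNA per cell cannot be told apart.

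Levels between genes are given per kilobase of transcript. MRPL51, a mitochondrion-specific protein of the large subunit, was the highest in OPM2 with DMSO, at 234 ± 7.65 CPM per kilobase (SD, n = 3), and stood at 96.9 ± 7.31 in H929. MRPS34 of the small subunit followed in OPM2 with 130.2 CPM per kilobase, then MRPL24 with 113, MRPL20 with 105 and MRPL12 with 102. MRPL22, MRPL57 and MRPL19 were the lowest of the protein-coding members tested, at 8.09, 8.48 and 10.2 CPM per kilobase. These 3 are listed with transcripts of 3173, 2655 and 7827 bases, against a median of 1182 bases for the members and 2813 for all genes tested. These genes were picked after their levels were seen.

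**Figure D1:**
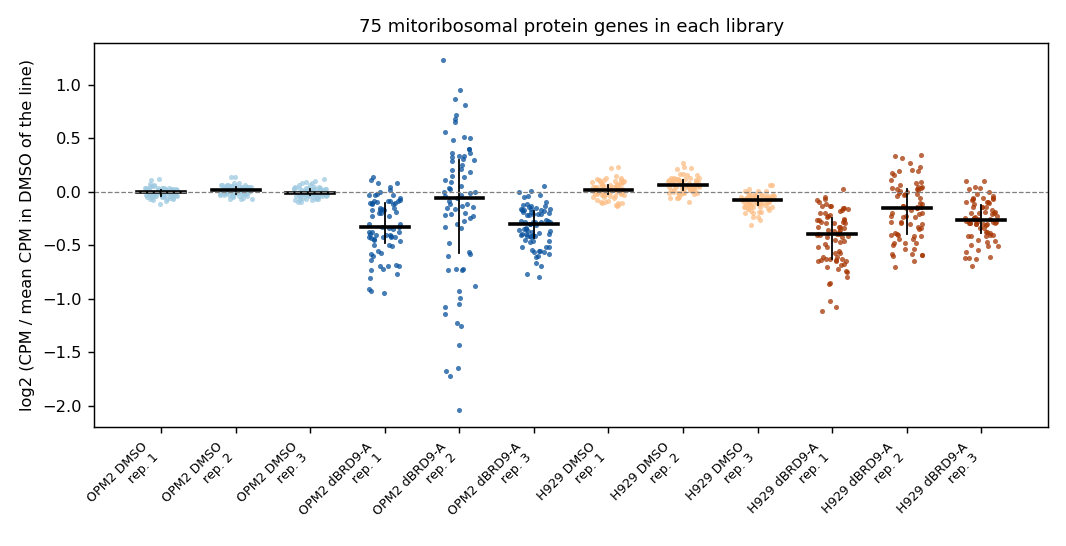
Each point is 1 of 75 protein-coding mitoribosomal genes in 1 of 12 libraries, as the log2 ratio of its CPM to its mean in the DMSO libraries of the line, with the median (thick line) and quartiles (thin line). The medians of the dBRD9-A libraries lie below 0, and the points of OPM2 dBRD9-A replicate 2 spread farther in both directions than those of any other library.

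In OPM2, dBRD9-A lowered part of the mitoribosomal genes. A gene was called when its adjusted p was under 0.05 in edgeR's quasi-likelihood test, fitted to all genes and all 12 libraries. 16 of the 80 members tested fell, against 7.36% of all genes tested (MRPL2, MRPL4, MRPL11, MRPL12, MRPL15, MRPL16, MRPL17, MRPL34, MRPL41, MRPL50, MRPL55, MRPS2, MRPS12, MRPS25, MRPS26 and MRPS34), and 1, the pseudogene MRPL42P5, rose, against 10.1% of all genes. The median log2 fold change over the members was -0.18, and over all genes it was 0.03. In 33 members the 3 treated libraries lay below all 3 DMSO libraries, which held for 18.9% of all genes tested. Without OPM2 dBRD9-A replicate 2, 45 members fell (15.6% of all genes) and 2 rose (16.1%), with a median of -0.32. Leaving out DMSO replicate 1, 2 or 3 gave 6, 5 and 7 members that fell (3.64%, 3.24% and 3.63% of all genes in these fits), and leaving out dBRD9-A replicate 1 gave 10 (5.2%).

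The drop was largest in MRPS12, which forms part of the decoding centre of the small subunit. It was at 59.8, 60.3 and 56.00 CPM in OPM2 with DMSO and at 30.3, 14.3 and 34.5 with dBRD9-A, in the order of replicates 1, 2 and 3. All treated libraries lay below all DMSO libraries, and replicate 2 was the lowest of them. The log2 fold change was -1.15 ± 0.26 (SE; adjusted p = 0.0112), and -0.87 ± 0.14 without replicate 2 (adjusted p = 0.000317). MRPS2, a protein of the small subunit with a bacterial counterpart, went from 75.6, 73.3 and 67.5 CPM to 42.2, 21.9 and 44.6, again without overlap and with replicate 2 lowest. Its log2 fold change was -0.99 ± 0.21 (adjusted p = 0.00896), and -0.75 without replicate 2. Fitted to the OPM2 libraries alone, MRPS12 and MRPS2 were not called (adjusted p = 0.0847 and 0.0844).

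Among large-subunit genes with a bacterial counterpart, MRPL12 makes the protein of the flexible stalk that binds translation factors. It stood at 106, 102 and 103 CPM with DMSO and at 62.7, 33.2 and 69.99 with dBRD9-A, so the groups did not overlap. Its log2 fold change was -0.91 ± 0.23 (adjusted p = 0.018) with replicate 2 and -0.66 without it. The call was lost when DMSO replicate 1, 2 or 3 was left out (adjusted p = 0.0543 to 0.0579). MRPL2, which helps to shape the peptidyl transferase centre, fell by 0.73 on the log2 scale, from 36.3, 35.8 and 35.03 to 24.3, 14.9 and 24.9 CPM. MRPL11, of the stalk base, and MRPL15 fell by 0.54 and 0.53. MRPL11 lost its call in 6 of 23 alternatives, among them the fits without DMSO replicate 1, 2 or 3 (adjusted p = 0.0746 to 0.104), with library size alone (0.0696) and with the OPM2 libraries alone (0.0994). MRPL2 was not called without DMSO replicate 1 or 2 (adjusted p = 0.0511 and 0.0522), and MRPL15 without DMSO replicate 2 (0.0529). With the OPM2 libraries alone MRPL12, MRPL2 and MRPL15 were not called either (0.103, 0.096 and 0.0593).

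Of the mitochondrion-specific genes of the large subunit, MRPL41 fell from 14.6, 14.3 and 14.3 CPM to 9.21, 9.72 and 10.8, with a log2 fold change of -0.54 ± 0.16 (adjusted p = 0.036). MRPL55 fell from 25.1, 25.3 and 27.6 to 17.5, 9.60 and 19.9, with -0.72 ± 0.22 (adjusted p = 0.0439). The groups did not overlap in either gene. MRPL41 has the highest GC content of the members (71.9%), and with a trend in GC content removed from each library its value turned to 0.23 and was not called. It lost its call in 8 of 23 alternatives in all, among them the fits without DMSO replicate 1, 2 or 3 or dBRD9-A replicate 1 (adjusted p = 0.0898 to 0.0975), with library size alone (0.0522) and with the OPM2 libraries alone (0.0581). MRPL55 lost its call in 12 of 23 alternatives, including library size alone (adjusted p = 0.085), the OPM2 libraries alone (0.163) and 9 of the 12 fits that leave out 1 library (adjusted p = 0.0533 to 0.127), and kept it without OPM2 dBRD9-A replicate 2 or 3 or H929 dBRD9-A replicate 1.

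By mean raw count over the 12 libraries, the uncalled members that came highest were MRPL9 (8403), MRPS27 (8304), MRPL3 (7739) and MRPL37 (7114). MRPL9 was at 165, 167 and 163 CPM with DMSO and 155, 158 and 150.2 with dBRD9-A (log2 fold change -0.09, and 0.03 with a trend in transcript length removed). MRPS27, a pentatricopeptide repeat protein of the small subunit, had -0.17. MRPL3 was at 145, 151 and 145 CPM with DMSO and 97.1, 153 and 98.3 with dBRD9-A, and MRPL37 at 139, 135 and 130.4 and 100.1, 145 and 101. In MRPL3 and MRPL37, replicates 1 and 3 lay below every DMSO library and replicate 2 lay above them. In MRPL9 the groups did not overlap and it was not called. Without replicate 2 MRPL3 and MRPL37 fell, with log2 fold changes of -0.60 (adjusted p = 0.000136) and -0.44 (adjusted p = 0.00439). With the GC trend removed MRPL37 was at 0.02.

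That pattern was common among the members. In 64 of the 80 tested, OPM2 dBRD9-A replicates 1 and 3 both lay below every DMSO library, which held for 30% of all genes tested. Replicate 2 lay above all DMSO libraries in 26 of these 64 and within their range in 5. MRPL32, a large-subunit protein that matures by cleavage inside the mitochondrion, shows the first case. It was at 55.1, 56.8 and 57.9 CPM with DMSO and 44.5, 133 and 44.6 with dBRD9-A, and its log2 fold change was 0.38 with replicate 2 and -0.36 without it (adjusted p = 0.00943). MRPL38, which had 51.05, 21.7 and 56.8 CPM in the treated libraries against 70.01, 69.7 and 68.1 with DMSO, shows the opposite, with replicate 2 lowest. Both were chosen after their values were seen.

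Replicate 2 was above both replicates 1 and 3 in 46 of the 75 protein-coding mitoribosomal genes and below both in 24. Its log2 ratio to their mean went with transcript GC content (Spearman -0.65 across 75 genes, which share the same 3 libraries and are not independent). In the 25 members of lowest GC content, at most 45.8%, the median OPM2 log2 fold change was -0.08 with replicate 2 and -0.28 without it, and 1 and 16 members fell. In the 25 of highest GC content, at least 54.0%, the medians were -0.45 and -0.42, and 11 and 15 fell. Without replicate 2 the Spearman correlation of the OPM2 fold change with GC content was -0.10, against -0.54 with it. In H929 the correlation of the fold change with GC content was -0.06. Single H929 libraries did go with GC content in their deviations from the group mean over members. The Spearman correlation was -0.744 in dBRD9-A replicate 1 and 0.678 in replicate 2, and -0.438 to 0.33 in the other H929 libraries. The SD of these deviations was 0.141 and 0.174 in dBRD9-A replicates 1 and 2, against 0.636 in OPM2 dBRD9-A replicate 2. The part of GC content in the other results was not tested beyond these values and the fit with the GC trend removed, in which 23 members fell and 2 rose in OPM2 (11% and 15.7% of all genes did so in that fit).

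**Figure D2:**
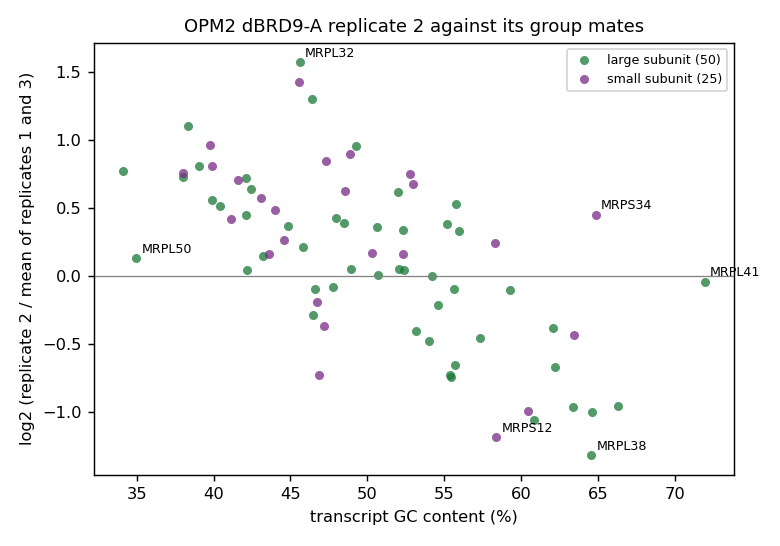
Each point is 1 of 75 protein-coding mitoribosomal genes, with its transcript GC content (percent, horizontal) and the log2 ratio of OPM2 dBRD9-A replicate 2 to the mean of replicates 1 and 3 (vertical), green for the large and purple for the small subunit. GC-poor members such as MRPL32 lie above 0 and GC-rich ones such as MRPL38 and MRPS12 below it, while MRPL41 and MRPS34 lie off this trend.

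In H929, 10 of the 80 members tested fell with dBRD9-A, against 5.67% of all genes tested, and 0 rose, against 7.33% (13% in either direction). The median log2 fold change over the members was -0.26, and over all genes it was -0.002. In 43 members the treated libraries lay below all DMSO libraries (23.6% of all genes), and in 0 above them (22%). No member with a positive fold change had an unadjusted p under 0.05 in edgeR (14.4% of all genes had) or in DESeq2 (17.4%). Without OPM2 dBRD9-A replicate 2 in the edgeR fit 1 member had (24.4% of all genes). By limma-voom 1 was called higher, MRPL42P5 (17.4% of all genes were). The 10 that fell were MRPL4, MRPL17, MRPL18, MRPL36, MRPL46, MRPL50, MRPS23, MRPS25, MRPS26 and MRPS34. The spread per gene is shared between the lines in this fit, and without OPM2 dBRD9-A replicate 2 in it 42 members fell in H929 (16.5% of all genes). With the H929 libraries fitted alone 36 fell (16.3% of all genes). Without H929 DMSO replicate 1, 2 or 3 the count was 4, 1 and 5 (3.4%, 1.38% and 2.18% of all genes), and without dBRD9-A replicate 1, 2 or 3 it was 1, 6 and 6 (1.59%, 2.29% and 3.34%).

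Of those called in H929 and not in OPM2, MRPS23 of the small subunit was at 62.1, 69.1 and 60.2 CPM with DMSO and 40.7, 45.9 and 46.4 with dBRD9-A, a log2 fold change of -0.53 ± 0.11 (adjusted p = 0.00962). MRPL36, a small large-subunit protein with a bacterial counterpart, went from 62.8, 65.7 and 56.2 to 39.9, 44.1 and 46.1 CPM (-0.51 ± 0.12, adjusted p = 0.0198). MRPL18 went from 41.1, 45.1 and 40.1 to 27.3, 33.2 and 29.7 (-0.49 ± 0.13, adjusted p = 0.032). The groups did not overlap in any of the 3. In OPM2 their log2 fold changes were -0.32, -0.28 and -0.18 with replicate 2 and -0.43, -0.42 and -0.35 without it, when all 3 were called. MRPS23 lost its H929 call without DMSO replicate 2 or dBRD9-A replicate 1 (adjusted p = 0.0585 and 0.0561). MRPL36 lost it in 4 of the 12 fits without 1 library (adjusted p = 0.0573 to 0.103), those without H929 DMSO replicate 1 or 2 or dBRD9-A replicate 1 or 2. MRPL18 lost it in 6 (0.0518 to 0.145), those without OPM2 DMSO replicate 1, any H929 DMSO library or H929 dBRD9-A replicate 1 or 3. MRPL18 also lost it with RLE factors (0.0517) and with the length trend removed (0.0832). MRPL46 had a log2 fold change of -0.36 in H929 (adjusted p = 0.0365). In OPM2 it had -0.19, and -0.22 without replicate 2, and was called in neither fit. It lost the H929 call in 15 of 23 alternatives, 9 of them fits without 1 library (0.0587 to 0.186). These 9 are the fits without any DMSO library or any H929 dBRD9-A library.

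MRPS12 and MRPS2, the members lowered most in OPM2, were also lower in each treated H929 library than in each DMSO library. MRPS12 was at 63.1, 79.2 and 60.95 CPM with DMSO and 31.3, 44.8 and 41.8 with dBRD9-A (-0.79 ± 0.26, adjusted p = 0.0642). MRPS2 was at 106, 128 and 109 and 62.7, 75.7 and 73.8 (-0.69 ± 0.21, adjusted p = 0.0502). Neither pair of groups overlapped and neither gene passed the threshold. MRPL3, MRPL9, MRPL37 and MRPS27, again the uncalled members of highest mean raw count over the 12 libraries, had -0.47, -0.13, -0.36 and -0.25 in H929. MRPS12 and MRPS2 passed the threshold once the shared spread no longer held OPM2 dBRD9-A replicate 2 (adjusted p = 0.000285 and 8.4e-05).

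6 members fell in both lines, MRPL4, MRPL17, MRPL50, MRPS25, MRPS26 and MRPS34, which is 37.5% of those that fell in OPM2 and 60.0% of those that fell in H929. Of all genes tested 3.19% fell in both lines. When OPM2 dBRD9-A replicate 2 was left out 38 members did so, or 84.4% and 90.5% of the members that fell in each line, against 10.4% of all genes. MRPL4 lines the exit tunnel for the new protein chain. It was at 105, 109.6 and 103 CPM in OPM2 with DMSO and 60.7, 51.1 and 72.1 with dBRD9-A, and at 131, 160.5 and 139 and 70.9, 95.7 and 93.6 in H929. Its log2 fold changes were -0.79 ± 0.15 (adjusted p = 0.00481) and -0.73 ± 0.15 (adjusted p = 0.00859). In OPM2 the call was lost with the GC trend removed (-0.41, adjusted p = 0.0697). In H929 it was lost without DMSO replicate 2 or dBRD9-A replicate 1 (adjusted p = 0.0642 and 0.059).

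MRPL17 is the counterpart of a bacterial large-subunit protein near the exit of the tunnel. It was at 58.2, 61.6 and 59.7 CPM in OPM2 with DMSO and 37.3, 36.3 and 39.3 with dBRD9-A, and at 58.2, 64.9 and 55.6 and 34.2, 41.2 and 40.4 in H929. Here replicate 2 of OPM2 lay close to its group mates. The log2 fold changes were -0.67 ± 0.11 (adjusted p = 0.00191) and -0.63 ± 0.11 (adjusted p = 0.00339), and MRPL17 was called lower in both lines under all 23 alternatives. MRPL50, a mitochondrion-specific protein, was at 29.7, 30.5 and 33.3 CPM in OPM2 with DMSO and 23.01, 25.8 and 24.1 with dBRD9-A, and at 36.3, 38.5 and 35.9 and 23.8, 25.5 and 29.9 in H929. Its groups did not overlap, but with adjusted p = 0.0498 in OPM2 it lay at the threshold and lost the call in 16 of 23 alternatives. These include 8 of the 12 fits without 1 library (adjusted p = 0.0529 to 0.16), and the call held without OPM2 dBRD9-A replicate 2 or any H929 dBRD9-A library. In H929 it had -0.48 ± 0.12 (adjusted p = 0.0168) and lost the call in 7, among them the fits without any H929 DMSO library or H929 dBRD9-A replicate 1 or 2 (0.0552 to 0.104).

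MRPS26, MRPS25 and MRPS34 are mitochondrion-specific proteins of the small subunit, and variants of MRPS25 and MRPS34 are known from inherited mitochondrial disease. MRPS26 was at 31.2, 32.4 and 29.8 CPM in OPM2 with DMSO and 16.3, 13.3 and 19.5 with dBRD9-A, and at 14.3, 18.7 and 13.7 and 7.39, 9.96 and 10.2 in H929. Its log2 fold changes were -0.92 ± 0.18 (adjusted p = 0.00525) and -0.76 ± 0.18 (adjusted p = 0.0166), called in OPM2 under all 23 alternatives and in H929 under all but those without DMSO replicate 2 or dBRD9-A replicate 1 (adjusted p = 0.113 and 0.103). MRPS25 was at 85.1, 97.9 and 84.1 and 66.1, 53.6 and 71.9 CPM in OPM2, and at 95.3, 103 and 89.3 and 61.1, 68.9 and 70.1 in H929. The log2 fold changes of MRPS25 were -0.48 and -0.52, and it lost the call in 6 of 23 alternatives in OPM2 and in 7 in H929. Among these were the fits without any DMSO library in OPM2 (adjusted p = 0.0511 to 0.106) and without any single H929 library in H929 (0.054 to 0.126). Neither gene overlapped between the groups of a line.

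MRPS34 was at 131, 133 and 129 CPM in OPM2 with DMSO and 78.5, 116 and 91.4 with dBRD9-A, and at 125, 137 and 121 and 76.6, 96.9 and 87.4 in H929. The groups did not overlap, and OPM2 replicate 2 was the highest of the treated libraries. The log2 fold changes were -0.45 ± 0.14 (adjusted p = 0.0453) and -0.56 ± 0.14 (adjusted p = 0.0239). With the GC trend removed the value in OPM2 turned to 0.20, and in OPM2 the call was lost in 10 of 23 alternatives. 5 of these were fits without 1 library (adjusted p = 0.0756 to 0.124), those without any OPM2 DMSO library or OPM2 dBRD9-A replicate 1 or 3. In H929 it was lost in 7. These were the 5 fits without any H929 DMSO library or H929 dBRD9-A replicate 1 or 3 (0.0588 to 0.12), and the fits with the GC trend (-0.45, adjusted p = 0.378) or the length trend removed (0.0585). MRPS34 and MRPS25 overlap EME2 and NR2C2 in the gene annotation, and since no source used here gives the strand setting of the counting, reads from overlapping genes cannot be told apart.

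**Figure D3:**
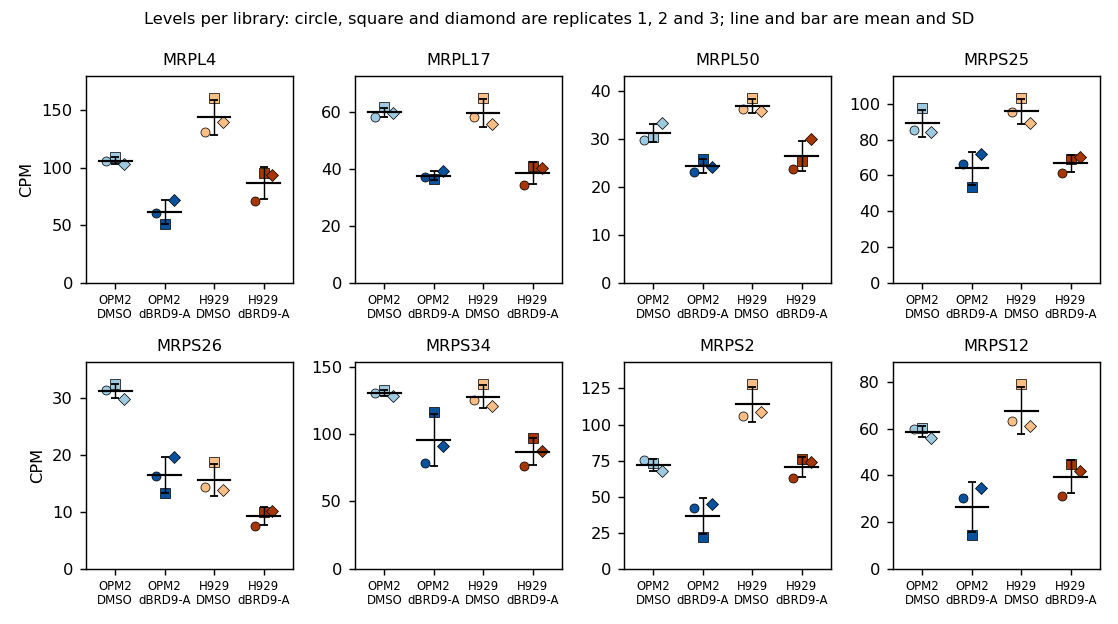
Levels in CPM of the 6 genes that fell in both lines and of MRPS2 and MRPS12, in each library of the 4 groups, with mean and SD. In each gene and line the dBRD9-A points lie below the DMSO points, and in MRPS2 and MRPS12 replicate 2 is the lowest of the OPM2 dBRD9-A points.

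To show the start regions of genes that moved together, the 120 bases before the transcription start farthest upstream of the 6 genes that fell in both lines are given, from RefSeq on GRCh38.p14 (the deposited tables use hg19, so these positions belong to another build). They are MRPL4 chr19:10251831-10251950 on the plus strand, MRPL17 chr11:6683341-6683460 on the minus strand, MRPL50 chr9:101398619-101398738 on the minus strand, MRPS25 chr3:15065316-15065435 on the minus strand, MRPS26 chr20:3045932-3046051 on the plus strand and MRPS34 chr16:1773135-1773254 on the minus strand. Each is written 5′ to 3′ on the strand of the gene. Capitals mark matches, on either strand, to 4 motifs: the E-box CACGTG, which MYC can bind, CCGGAAG of the ETS family, AAGATGG of YY1 and the NRF1 core CATGCGC.
MRPL4: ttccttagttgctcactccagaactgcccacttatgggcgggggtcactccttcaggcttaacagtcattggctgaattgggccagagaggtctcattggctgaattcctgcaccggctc
MRPL17: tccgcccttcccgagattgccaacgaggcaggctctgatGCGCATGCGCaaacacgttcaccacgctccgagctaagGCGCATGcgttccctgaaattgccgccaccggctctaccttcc
MRPL50: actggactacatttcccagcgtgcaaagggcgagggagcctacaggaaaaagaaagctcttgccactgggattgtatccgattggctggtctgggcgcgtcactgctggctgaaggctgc
MRPS25: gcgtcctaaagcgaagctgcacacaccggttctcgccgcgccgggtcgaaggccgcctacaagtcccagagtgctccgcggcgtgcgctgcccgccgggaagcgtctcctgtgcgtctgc
MRPS26: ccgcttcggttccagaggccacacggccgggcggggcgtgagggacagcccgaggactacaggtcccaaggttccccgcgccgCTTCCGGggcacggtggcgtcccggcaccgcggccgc
MRPS34: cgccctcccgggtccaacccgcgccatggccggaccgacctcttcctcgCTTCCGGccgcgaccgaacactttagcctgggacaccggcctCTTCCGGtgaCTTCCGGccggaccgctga

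MRPL17 holds the NRF1 core on both strands, where the matches overlap, and once more nearer the start. MRPS26 holds 1 ETS match and MRPS34 holds 3, all on the opposite strand. The stretches of MRPL4, MRPL50 and MRPS25 hold none of these letters, although the window of the second start of MRPL4 holds the YY1 letters. Over the whole windows of 300 bases, from 250 before to 50 after the start, 70 of the 81 members have an entry. The ETS letters were in 29 of them (41.4%), against 20.5% of 12097 tested genes with an entry and 12.2% of all 27305 genes with one. The YY1 letters were in 24 (34.3%), against 8.96% and 7.11%. The E-box was in 10 (14.3%, against 12.3% and 8.77%) and the NRF1 core in 7 (10%, against 8.32% and 5.3%). A gene with several windows counts once if any window matches, and a match is a description of the letters, not a binding site.

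The response was then set beside the letters. Over the 29 members tested with the ETS letters the median log2 fold change was -0.12 in OPM2 and -0.19 in H929, and over the 40 without them it was -0.20 and -0.35. Of these, 4 and 10 fell in OPM2 (7.36% of all genes did) and 4 and 6 in H929 (5.67%). In the fit without OPM2 dBRD9-A replicate 2, 13 and 27 fell in OPM2 (15.6% of all genes), with medians of -0.20 and -0.41, and 13 and 25 in H929 (16.5%). The 10 with an E-box had medians of -0.15 and -0.21, against -0.16 and -0.29 in the 59 without. Of these, 1 and 13 fell in OPM2 and 1 and 9 in H929. Without the replicate 6 and 34 fell in OPM2 and 4 and 34 in H929. The 6 tested with the NRF1 core had -0.11 and -0.21, against -0.17 and -0.29 in the 63 without. Of these, 1 and 13 fell in OPM2 and 1 and 9 in H929, and without the replicate 4 and 36 in OPM2 and 3 and 35 in H929. The 23 with the YY1 letters had -0.19 and -0.30, against -0.12 and -0.25 in the 46 without. Their OPM2 medians without the replicate were -0.34 and -0.30, when 15 and 25 fell. These differences were not tested.

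Many members share their start region with a neighbour that is read in the other direction. A start on the opposite strand, pointing away and at most 1000 bases off, was listed for 26 of 70 members (37.1%), against 27.9% of the tested genes. 18 such partners outside the member list were tested. 2 of them fell in OPM2 (HIRA, beside MRPL40, and PTCD2, beside MRPS27) and 1 in H929 (TCP1, beside MRPL18). Over all 18 pairs 3 members fell in OPM2 (MRPL50, MRPS2 and MRPS12, whose partners were not called) and 2 in H929 (MRPL18 and MRPL50). Of all genes 7.36% and 5.67% fell. The partners' median log2 fold change was -0.20 in OPM2 and -0.19 in H929. When OPM2 dBRD9-A replicate 2 was left out, 5 partners fell and 1 rose in OPM2, and 5 fell and 2 rose in H929. Over all 18 pairs 9 and 10 members then fell (15.6% and 16.5% of all genes fell). MRPS12 and SARS2, a mitochondrial seryl-tRNA synthetase, start 181 bases apart. SARS2 was at 26.5 ± 2.30 and 19.8 ± 8.52 CPM in OPM2 with DMSO and dBRD9-A (SD, n = 3), with log2 fold changes of -0.41 and -0.07 in OPM2 and H929, beside -1.15 and -0.79 for MRPS12. Without replicate 2 SARS2 had -0.11 in OPM2 (adjusted p = 0.541), beside -0.87 for MRPS12. MRPL18 and TCP1, a subunit of the cytosolic chaperonin, start 210 bases apart, and in H929 both fell (-0.49 and -0.54, adjusted p = 0.032 and 0.0219). MRPL50 and ZNF189 start 233 bases apart, and ZNF189 had -0.07 in OPM2 and 0.15 in H929 and was not called. These 3 pairs were chosen after their values were seen.

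The fold changes of the 2 lines went together across members. Over the 75 protein-coding mitoribosomal genes the Spearman correlation of the OPM2 and H929 log2 fold changes was 0.57 and the Pearson correlation 0.64, and without OPM2 dBRD9-A replicate 2 they were 0.89 and 0.91. Over all genes tested the Spearman correlation was 0.56 and 0.63. The genes of a line share its libraries, so these values are descriptions. Of the 75 protein-coding mitoribosomal genes 57 were below 0 in both lines, and 64 without replicate 2. The share of all genes below 0 in both lines is not given here. The difference of the responses was tested as an interaction term in edgeR, and 0 members were called in either direction (0.579% of all genes were, 0.293% higher in H929 and 0.286% lower), and 0 by DESeq2 or limma-voom. The shares of all genes called by DESeq2 and limma-voom are not given here. No member had an unadjusted p under 0.05 in edgeR, where 3.84% of all genes had one and were higher in H929, and 4.77% lower. In DESeq2 1 member had (4.97% and 5.13% of all genes), and in limma-voom 1 (8.16% and 10.4%). The median difference, H929 minus OPM2, was -0.07, and 0.10 without replicate 2, when again 0 members were called (3.05% of all genes, 1.63% higher and 1.42% lower).

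**Figure D4:**
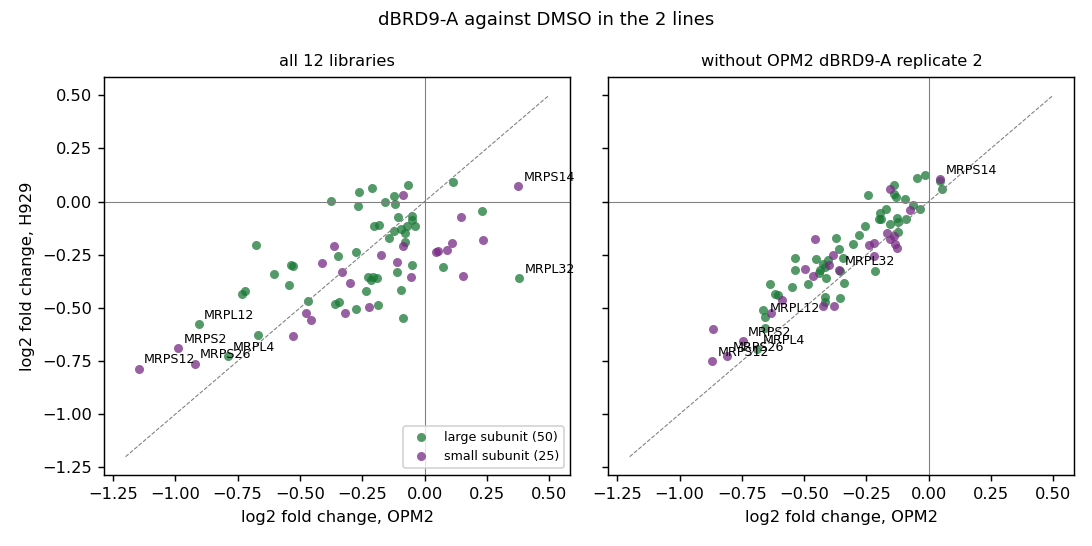
Log2 fold change with dBRD9-A in OPM2 (horizontal) and H929 (vertical) for 75 protein-coding mitoribosomal genes, with all 12 libraries (left) and without OPM2 dBRD9-A replicate 2 (right), where the dashed line marks equal change. MRPL32 lies right of 0 in the left panel and left of 0 in the right one, and the points lie closer to 1 line on the right.

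By subunit, 11 of 50 large-subunit members fell in OPM2 and 6 in H929, with median log2 fold changes of -0.20 and -0.28. In the small subunit 5 of 25 members tested fell in OPM2 and 4 in H929, with medians of -0.17 and -0.29. Of all genes 7.36% fell in OPM2 and 5.67% in H929. Without OPM2 dBRD9-A replicate 2, 29 of 50 and 16 of 25 fell in OPM2, with medians of -0.34 and -0.38, and 24 and 18 in H929 (15.6% and 16.5% of all genes). Split by origin, the 29 large-subunit genes with a bacterial counterpart had medians of -0.23 and -0.34 and the 20 mitochondrion-specific ones -0.13 and -0.14. The 16 small-subunit genes with a counterpart had -0.10 and -0.29, and the 9 specific ones -0.30 and -0.38. Without OPM2 dBRD9-A replicate 2 the 4 medians in OPM2 were -0.36, -0.21, -0.37 and -0.38. The differences between these classes were not tested.

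The paralogs of MRPS18 and 2 further entries need separate mention. MRPS18A, whose protein sits in the large subunit, had log2 fold changes of -0.26 in OPM2 and 0.04 in H929. MRPS18C of the small subunit was at 45.2, 43.2 and 44.4 CPM in OPM2 with DMSO and 39.8, 65.04 and 36.9 with dBRD9-A. Its log2 fold change was 0.09 with replicate 2, and -0.22 without it, when it was called (adjusted p = 0.0417). It was also below 0 with the GC trend removed (-0.11). MRPS18B is listed in 7 copies of 1 transcript, which together had 5 counts over the 12 libraries. TUBB, a tubulin gene that dividing cells use and that lies in the same major histocompatibility region, was listed at 0.253 to 1.48 CPM, so no level of MRPS18B is drawn from these counts.

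MRPS30, a large-subunit protein, was at 34.99, 37.2 and 37.6 CPM in OPM2 with DMSO and 22.6, 57.5 and 23.97 with dBRD9-A. Replicates 1 and 3 were below all DMSO libraries and replicate 2 above them, and the log2 fold change was -0.09 with replicate 2 and -0.66 without it (adjusted p = 0.000244). It was above 0 without dBRD9-A replicate 1 (0.14) or 3 (0.11) and with the length trend removed (0.09). In H929 it went from 85.7, 99.1 and 89.2 to 61.3, 56.1 and 70.1 CPM, without overlap (-0.55, adjusted p = 0.233). MRPS36 was at 22.1, 21.01 and 23.4 and 21.8, 24.7 and 19.9 CPM in OPM2, with groups that overlapped and a log2 fold change of -0.005 that lay above 0 in 7 of 23 alternatives. In H929 MRPS36 had -0.11 (0.03 without DMSO replicate 1).

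The pseudogene and antisense entries were low. MRPL42P5 was at 0.298, 0.301 and 0.312 CPM in OPM2 with DMSO and 0.665, 2.57 and 0.619 with dBRD9-A, so the groups did not overlap and replicate 2 was far above its mates. Its log2 fold change was 1.95 ± 0.51 (adjusted p = 0.0228), and 1.06 without replicate 2 (adjusted p = 0.0163). The call was lost without DMSO replicate 1, 2 or 3 (adjusted p = 0.0719 to 0.0771). MRPL23-AS1, antisense to MRPL23, was at 0.267, 0.247 and 0.299 and 0.68, 0.295 and 0.755 CPM, and rose without replicate 2 (1.39, adjusted p = 0.0064). With all libraries it was not called (1.15, adjusted p = 0.0689). Reads of a pseudogene and its parent, and of an antisense transcript and its partner, may be split or shared by the counting, so these values are uncertain. MRPL45P2 and MRPS31P5 had 0.40 and 0.06 and were not called, and MRPS31P5 was below 0 without replicate 2 (-0.09).

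Other genes of mitochondrial translation were followed through lists drawn up with earlier results of these data known. Of 7 mitoribosomal proteins listed for their names outside the rule (MRPL57, entered for its older symbol, is also a member), PTCD3, a pentatricopeptide repeat protein of the small subunit, fell in both lines (-0.32 and -0.45), with list medians of -0.13 in OPM2 and -0.28 in H929, and of -0.30 and -0.24 without OPM2 dBRD9-A replicate 2. Of 26 assembly and ribosomal RNA modification factors 9 fell in OPM2 and 5 in H929, with a median of -0.31 in each. MRM1, a methyltransferase of the ribosomal RNA, had -1.10 and -0.73, and TRUB2, a pseudouridine synthase, -0.77 and -0.64, both called in both lines. RBFA, which helps to mature the small subunit, went from 104 ± 13.04 to 49.8 ± 3.52 CPM in H929 (-1.06, adjusted p = 0.000631) and had -0.47 in OPM2. DDX28, a helicase of large-subunit assembly, fell in OPM2 (-0.87) and was not called in H929 (-0.50). RPUSD4, another pseudouridine synthase, also fell in OPM2 (-0.71).

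Of 17 translation factors and insertion proteins 6 fell in OPM2 and 3 in H929, with a median of -0.29 in each. LRPPRC, which protects mitochondrial messenger RNA, went in OPM2 from 601 ± 18.1 CPM to 435 ± 58.7, and in H929 from 386 ± 38.1 to 249 ± 23.3, and was called in both (-0.47 and -0.63). TUFM, the elongation factor that brings aminoacyl-tRNA to the ribosome, fell in OPM2 (-0.51) and had -0.26 in H929. MTFMT, which formylates the initiator tRNA, fell in OPM2 (-0.51), and GFM1, the translocation factor, in H929 (-0.47). MRRF, the recycling factor, fell in both (-0.49 and -0.36). Of 19 mitochondrial aminoacyl-tRNA synthetase genes tested 4 fell in OPM2 and 1 in H929, with medians of -0.22 and -0.17. MARS2, the methionyl-tRNA synthetase, went in OPM2 from 46.2 ± 3.54 CPM to 16.1 ± 5.33, and in H929 from 42.6 ± 7.63 to 23.3 ± 3.56, and was called in both (-1.51 and -0.87). NARS2, CARS2 and EARS2 were the others that fell in OPM2 (-0.70, -0.55 and -0.51).

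Of 17 genes that copy, transcribe or process mitochondrial nucleic acid 5 fell and 1 rose in OPM2, and 7 fell in H929, with medians of -0.33 and -0.49. C10orf2, the replicative helicase Twinkle, fell in both lines (-0.86 and -0.97), as did ELAC2, which cuts tRNA from precursors (-0.63 and -0.54), and TFB2M, a transcription factor of mitochondrial DNA (-0.43 and -0.59). MGME1, a nuclease of mitochondrial DNA, rose in OPM2 (0.42). PNPT1, a ribonuclease, SUPV3L1, a helicase, and TFAM, which packages mitochondrial DNA, fell in H929 (-0.88, -0.65 and -0.65). Of 9 regulators of mitochondrial biogenesis 3 fell in each line, and they were MYC (-1.33 and -1.72), PPARGC1B (-1.22 and -0.92) and PPRC1 (-0.79 and -0.69), the last 2 coactivators of the PGC-1 family. NRF1, GABPA (an ETS factor) and YY1, named after their values were seen, had -0.23, -0.008 and 0.08 in OPM2 and were not called. Without OPM2 dBRD9-A replicate 2 all 9 regulators were below 0 in OPM2, at -0.067 or lower. In H929 with all libraries all 9 were at -0.066 or lower.

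Without OPM2 dBRD9-A replicate 2 the counts that fell in OPM2 were 3 of 7, 14 of 26, 12 of 17, 7 of 19, 11 of 17 and 6 of 9 for the proteins outside the naming rule, assembly factors, translation factors, synthetases, nucleic acid genes and regulators, and in H929 they were 4, 14, 9, 3, 12 and 6. For comparison, 2 of 85 cytosolic ribosomal protein genes tested fell in OPM2 (RPL7L1 and RPL8) and 1 in H929 (RPL7L1), and 9 and 3 without that replicate. Their median log2 fold changes were -0.09 and -0.10, and -0.22 and -0.07 without it. These counts stand beside the same shares of all genes as above (7.36% and 5.67%, and 15.6% and 16.5% without the replicate), and the difference between the lists was not tested.

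Between the lines in DMSO, a gene was called when its adjusted p was under 0.05 and its level differed at least 2-fold. 7 members were higher in H929, against 21.4% of all genes tested, and 5 lower, against 15%. Without OPM2 dBRD9-A replicate 2 in the shared spread 6 were higher (21.6%) and 6 lower (16.1%). The median log2 difference, H929 over OPM2, was 0.11 over the members and 0.05 over all genes. Scaled by library size alone the median of all genes moved by more than 0.1, to -0.07, and that of the members to -0.02. In 36 members the H929 libraries lay above all OPM2 libraries and in 26 below, which held for 41.5% and 37.2% of all genes.

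MRPL41 was at 14.6, 14.3 and 14.3 CPM in OPM2 and at 48.5, 49.2 and 40.3 in H929, a log2 difference of 1.68 ± 0.16 (adjusted p = 1.57e-06). MRPS28, which was at 12.4, 12.9 and 11.97 and 33.9, 34.8 and 32.4 CPM, had 1.44 ± 0.16 (adjusted p = 6.22e-06). MRPS30 had 1.32, MRPL36 1.16, MRPL22, another protein of the exit tunnel, 1.10, and MRPL38 1.002. MRPL38 lies at the 2-fold threshold and dropped under it in 16 of 23 alternatives (0.81 to 0.997), 8 of them fits without 1 library (OPM2 DMSO replicate 3, OPM2 dBRD9-A replicate 2 or any H929 library), and MRPL22 did so with library size alone (0.98). On the other side, MRPS35 was at 125, 128 and 135 CPM in OPM2 and 49.6, 54.5 and 49.4 in H929 (-1.34 ± 0.12, adjusted p = 1.44e-06). MRPL51, the highest member per length in OPM2, was at 162, 152 and 160.3 and 70.9, 64.9 and 61.1 (-1.27 ± 0.12, adjusted p = 1.38e-06). MRPS33 had -1.05 and was under 2-fold with the GC trend removed (-0.92). The DMSO libraries of the lines did not overlap in any of these genes.

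The pseudogene MRPL42P5 was higher in H929 (1.79), and MRPS31P5 and MRPL23-AS1 were lower (-1.39 and -2.18). The value of MRPL23-AS1 rests on very few reads. It was at 0.267, 0.247 and 0.299 CPM in OPM2 and 0.016, 0.107 and 0.054 in H929, where the counts were 1, 6 and 3. Each member was also set beside the 10 tested genes on each side of it in the RefSeq gene order. Over the 80 members the Spearman correlation of a member's log2 difference with the median of its neighbours was 0.41 and the Pearson correlation 0.49, where members close to each other share neighbours. The neighbours of MRPL22 had a median of 1.197, with 10 of 20 called higher in H929, and those of MRPS28 had 1.45, with 11 of 20. The neighbours of MRPS31P5 had -1.48, with 15 of 20 called lower, those of MRPS35 had -0.89 with 9 of 20, and those of MRPL51 -0.71 with 9 of 20. For MRPL41, MRPS30 and MRPL36 the neighbour medians were 0.47, 0.17 and 0.36. Of the 12 called members 10 had a neighbour median on the same side of 0, the exceptions being MRPL42P5 (-0.20) and MRPL23-AS1 (0.20).

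**Figure D5:**
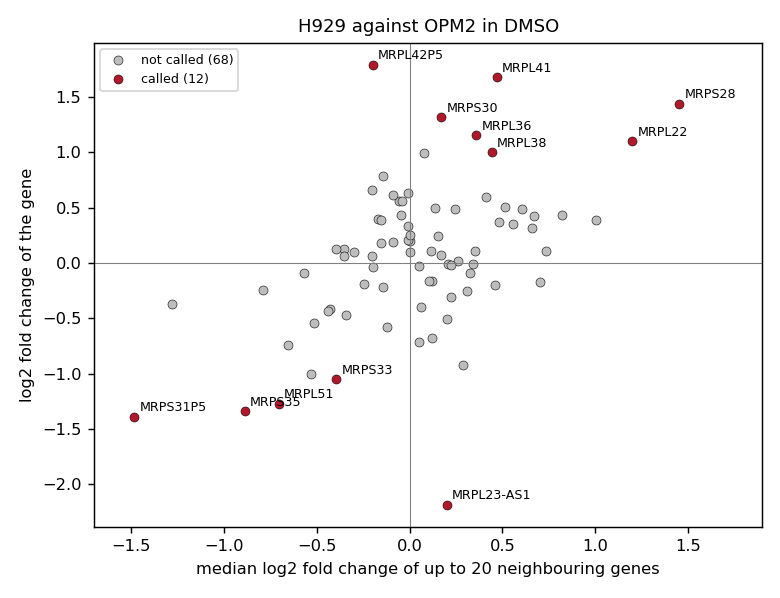
Log2 difference between H929 and OPM2 in DMSO for 80 members (vertical) against the median over up to 20 neighbouring tested genes (horizontal), with called members in red. MRPL22, MRPS28 and MRPS31P5 lie close to their neighbours' medians, and MRPL41 and MRPS30 lie far above theirs.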

How the data were processed

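Each of the 12 deposited tables lists 51780 transcripts with counts, FPKM and TPM, per the file headers. The submitters' processing notes name STAR, featureCounts, hg19 and GRCh37 and give no versions. The deposited counts are whole numbers and were tested as deposited. The deposited FPKM values served only to recover transcript length, and the deposited TPM values only to check it. Transcript GC content came from GENCODE, and 98.09% of the genes tested had a value.

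Counts were analysed in R 4.3.3 with edgeR 4.0.16 (TMM, filterByExpr, a mean per group, quasi-likelihood test with 8 residual degrees of freedom, Benjamini-Hochberg over 16409 genes). Members and lists were chosen with earlier results of these data known. Given with values in the text are up to 12 called members per treatment, 4 uncalled ones of highest mean raw count, those called in both lines or between the lines, the MRPS18 paralogs, MRPS30, MRPS36, pseudogenes and called genes of each list. MRPL16 and MRPL34 are named only among the members called in OPM2 and were not followed singly through the alternatives. Other genes given with log2 fold changes are marked as chosen after their values were seen. MRPL55 was moved to the mitochondrion-specific class afterwards, since it has no bacterial counterpart. Alternatives were RLE factors, library size alone, DESeq2 1.42.0, limma-voom (limma 3.58.1) with library weights, 2 other filters, each library left out, the replicate block, counts summed over transcripts, GC or length trends removed, and fewer libraries in the fit. Depth limits precision most in OPM2 dBRD9-A replicate 2, the shallowest library.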

Additional observations from a re-analysis of the deposited data

How the results depend on the processing

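In brackets is the share of all genes called in that direction in the same fit. The number of members that fell in OPM2 was 10 with library size alone (5.45%) and 49 with limma-voom (20.9%). It was 10 with the replicate block (5.27%) and 3 with OPM2 fitted alone (2.14%). With 1 library left out it was 5 to 45 (3.24% to 15.6%), against 16 (7.36%). The number that rose was 3 with limma-voom (23.2%), 2 with the GC trend removed (15.7%) and 2 with the length trend removed (11.1%). It was 0 with OPM2 alone (3.68%) and 0 to 2 with 1 library left out (5.05% to 16.1%), against 1 (10.1%). In H929 the number that fell was 45 with limma-voom (18.6%), 19 with the GC trend removed (9.36%) and 36 with H929 alone (16.3%). It was 1 to 42 with 1 library left out (1.38% to 16.5%), against 10 (5.67%), and limma-voom called 1 higher (17.4%). The median difference of the responses was 0.057 with limma-voom, and -0.105 to 0.099 with 1 library left out, against -0.072. The median difference of the lines in DMSO was -0.018 with library size alone, 0.016 with the length trend removed and 0.043 to 0.106 with 1 library left out. Summed levels were 4664 CPM in OPM2 and 4489 CPM in H929 with DMSO under library size alone, against 4573 and 4795.

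Single members that changed direction in OPM2 were MRPL9 (0.028 with the length trend removed), MRPL37, MRPL41 and MRPS34 (0.02, 0.226 and 0.204 with the GC trend removed) and MRPS18C (-0.184 with limma-voom, -0.111 with the GC trend removed, and -0.219 to 0.233 with 1 library left out). MRPS30 had -0.664 to 0.142 with 1 library left out (above 0 without dBRD9-A replicate 1 or 3) and 0.086 with the length trend removed. MRPS31P5 had -0.083 with limma-voom, -0.093 to 0.116 with 1 library left out and -0.037 with the GC trend removed. MRPS36 had 0.024 with RLE factors, 0.031 with library size alone, 0.022 with DESeq2, 0.039 with the filter of 1 CPM, -0.1 to 0.06 with 1 library left out, and 0.133 with the length trend removed. In H929, MRPS31P5 had 0.035 with library size alone and -0.113 to 0.035 with 1 library left out, and MRPS36 had -0.193 to 0.025. The causes were not tested beyond the library or trend named in each setting. Of 597 comparisons of a named member with an alternative in OPM2, 493 kept direction and side of the threshold, as did 430 of 504 in H929 and 257 of 275 between the lines.

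Deviations of DMSO and dBRD9-A libraries of the same replicate number correlated at 0.216, -0.017 and 0.009 in OPM2. In H929 the values were -0.009, -0.262 and -0.13, and several libraries correlated better with another number. H929 DMSO replicates 1, 2 and 3 went best with dBRD9-A replicates 2, 3 and 1 (0.447, 0.592 and 0.41). The deviations within a group are not independent, so these values cannot settle whether libraries were paired, and pairing across numbers was not tested. With the replicate number as a block 10 members fell (5.27% of all genes) and 1 rose (7.58%) in OPM2, and 9 fell in H929 (3.93%). In that fit 7 were higher and 6 lower in H929 than in OPM2. The shares of all genes in the block fit are not given here for this comparison. Those of the main fit, 21.4% and 15%, may differ from them. The block ended the OPM2 calls of MRPL11, MRPL41, MRPL50, MRPL55 and MRPS25 (adjusted p = 0.0637, 0.0572, 0.0737, 0.0724 and 0.0513) and the H929 call of MRPL46 (0.0664). A fit without 1 library assumes that the smaller group varies like the others.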
